A study of Mus musculus with 100 samples.

Results

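The uninjured left knee joint of STR/ort mice was compared 1 week after the right knee had been injured with the knee joint of STR/ort mice collected before any injury. The contralateral group held 4 libraries and the 0-day group 4, out of 100 libraries in the whole study, and all 8 were in the same experimental batch. Groups and replicate numbers were taken from the sample labels, and the counts of all genes in the table were used.

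The STR/ort strain was described by the labels as highly susceptible to post-traumatic osteoarthritis, the joint disease that follows a ligament rupture. The mice of all groups were 10 weeks old by the labels, which give the age at injury, so that joints of the 1-week group came from mice about a week older than those of the 0-day group. Right knees were loaded once along the tibia with 10 to 12 N until the anterior cruciate ligament ruptured, under isoflurane anaesthesia and with buprenorphine given afterwards, and the opposite joint was not loaded. The 0-day mice were collected before injury, and their knee side, their sex and the time of day of either collection were not given in the sources used here. The week that passed, the anaesthesia and analgesia and the injury of the other leg all belong to the 1-week group alone, so these cannot be told apart as sources of a difference from 0-day. Each library was made from a whole knee with the adjoining bone ends and some remaining soft tissue, so cartilage, bone, marrow, synovium, ligament and the attached muscle were all read together. STR/ort contralateral joints of 1-day (5 libraries), STR/ort injured joints of 1-week (5 libraries), and the 0-day and contralateral 1-week joints of C57BL/6 (4 and 5 libraries) and MRL/MpJ (4 and 4 libraries) served as comparisons, with C57BL/6 labelled as moderately susceptible and MRL/MpJ as not susceptible.

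A knee is an organ of many tissues. Chondrocytes keep a matrix of type II collagen and aggrecan, synovial fibroblasts secrete lubricin and hyaluronan, osteoblasts and osteoclasts build and resorb the bone under the cartilage, and macrophages patrol the lining. Immediate early genes are transcription factors and feedback regulators that cells switch on within minutes of a stimulus and switch off again within hours, while matrix genes, mitochondrial genes and the circadian clock change over longer times.

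Total counts ranged from 8805390 to 10883412 in the 0-day libraries and from 7584659 to 11503777 in the 1-week contralateral libraries. Levels are given as CPM, the reads of a gene relative to the TMM-scaled total of its library, and fold changes as log2 with the standard error. Calls required an adjusted p under 0.05 together with a fold change over 1.5 in edgeR's quasi-likelihood test with Benjamini-Hochberg adjustment over 17281 genes, from which all adjusted p values below come. The defining genes of a joint were present in all 8 libraries, with 1828–3542 CPM of Col2a1 (type II collagen) at 0-day, 1154–1566 CPM of Ibsp (bone sialoprotein) and 2534–6202 CPM of Prg4 (lubricin). The replicates were separate samples by their labels, and nothing says whether they came from separate mice, so the p values measure the spread between these samples. No 2 libraries within either group had the same counts, out of 12 pairs. Over all genes the 0-day libraries fell into 2 pairs, with a chi-square per gene (about 1 for counting noise alone) of 3.37 between replicates 1 and 2 and 7.25 between 3 and 4, against 12.95 to 15.51 between the pairs and 8.60 to 34.4 among the 1-week libraries. The 4 libraries of 0-day may therefore not be 4 independent units, and the p values would then be too small.

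In all, 2384 of 17281 genes (13.8%) were called between the contralateral joints at 1-week and the 0-day joints. Of these, 1091 were higher at 1-week (6.31% of genes tested) and 1293 lower (7.48%). The 4 contralateral joints lay above the 4 joints of 0-day, without overlap, in 1900 genes (11.0%) and below them in 2246 genes (13.0%). A fold change above 2 was fitted for 303 of the higher and 663 of the lower genes. The median log2 fold change of all genes was 0.08, so that the middle of the distribution was slightly above 0. Scaling by 25 housekeeping genes moved that median to -0.02 and gave counts of 723 higher and 1551 lower, so 31.8% rather than 45.8% of the calls were rises.

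**Figure D1:**
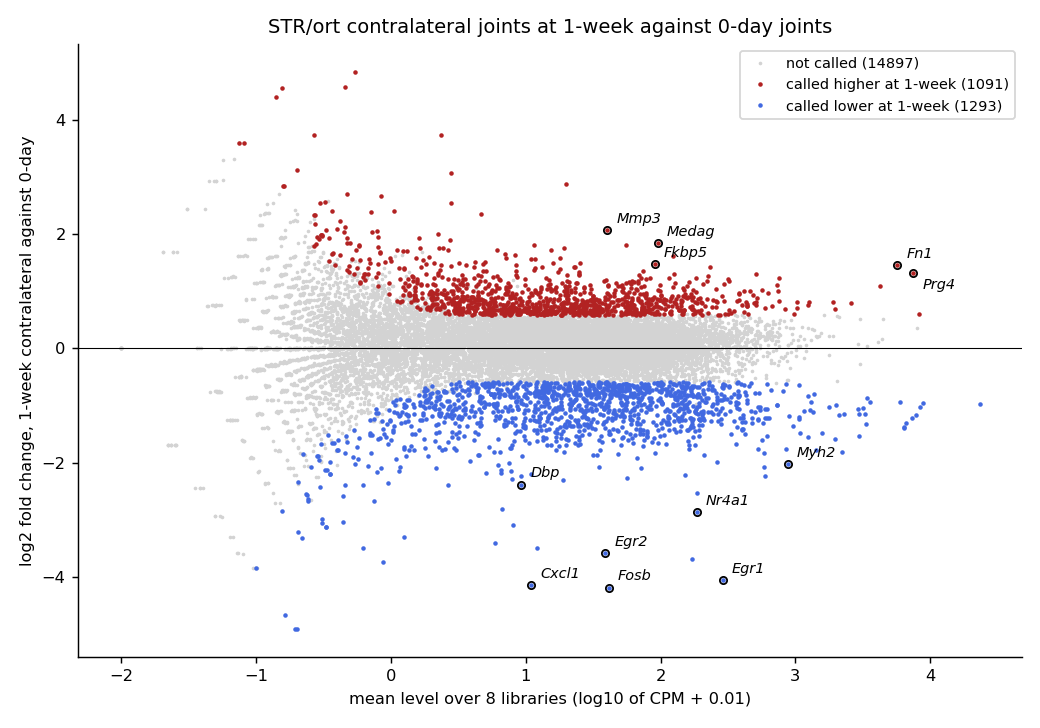
Each point is 1 of 17281 genes, with its mean level over the 8 STR/ort libraries on the horizontal axis (log10 of CPM + 0.01) and its log2 fold change of contralateral joints at 1-week against 0-day on the vertical axis. Genes called higher (1091) and lower (1293) are coloured and 12 genes described in the text are named, among them Egr1 (-4.05), Fosb (-4.19) and Cxcl1 (-4.15) below 0 and Mmp3 (2.08), Medag (1.85) and Fkbp5 (1.47) above it.

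Among genes without overlap and with a mean of at least 1 CPM in either group, 6 of the 10 largest falls were members of the immediate early list. Of 27 measured members of this list, 18 fell, 0 rose and 9 were not called, with a median log2 fold change of -1.54 against 0.08 for all genes. Egr1, a zinc finger transcription factor induced by growth factors and stretch, read 659.6, 683, 459 and 380.1 CPM in replicates 1 to 4 at 0-day and 27.3, 35.8, 31.2 and 33.2 CPM at 1-week. Every 0-day joint was more than 10 times as high as any joint of 1-week, and the log2 fold change was -4.05 ± 0.38 (adjusted p = 6.32e-10). Fos, a subunit of the AP-1 transcription factor, read 519, 441, 158 and 158 CPM at 0-day and 19.1, 18.3, 16.4 and 43.3 CPM at 1-week, a change of -3.68 ± 0.53 (adjusted p = 1.1e-06). The 0-day joints fell into a pair of high replicates (1 and 2) and a pair of lower ones (3 and 4), and even the lower pair lay above the highest joint of 1-week, which was replicate 4.

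Other members of the list fell as well. Fosb fell from 45.9–114 CPM to 2.03–9.74 CPM (-4.19 ± 0.64, adjusted p = 2.71e-06). Egr2 fell from 51.4–90.5 to 4.93–6.46 CPM (-3.59 ± 0.22, adjusted p = 1.59e-14), the smallest adjusted p of any gene in the comparison. Egr3 fell from 14.97–30.6 to 1.02–2.83 CPM (-3.49 ± 0.24). Nr4a1, an orphan nuclear receptor, fell from 268–384 to 33.2–53.7 CPM (-2.86 ± 0.23, adjusted p = 1.75e-11). Jun, the partner of Fos in AP-1, read 271, 257, 239.7 and 237 CPM at 0-day and 62.2, 94.6, 55.7 and 89.3 CPM at 1-week (-1.69 ± 0.13, adjusted p = 9.27e-12). Arc, which is not in the list but is known as an early gene of neurons, fell from 7.34–22.1 to 1.42–2.27 CPM (-3.09 ± 0.32, adjusted p = 6.29e-09). In none of these genes did the 2 groups overlap.

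Among members with the highest levels that were not called, Klf6 read 314–386 CPM at 0-day and 235–304 CPM at 1-week (-0.36 ± 0.08, adjusted p = 0.000417, a fold change under 1.5), and Klf4 read 193–216 and 132–222 CPM, with overlapping groups. Another 3 genes, in none of the lists, were named for their difference from MRL/MpJ, which uses the same change. Spry4, an inhibitor of receptor tyrosine kinase signalling, fell from 24.2–30.4 to 5.03–8.98 CPM (-1.78 ± 0.14, adjusted p = 1.47e-11). Apold1, an early response gene of vascular endothelium, fell from 44.2–67.1 to 12.2–18.1 CPM (-1.87 ± 0.17), and Hes1, a repressor downstream of Notch, from 50.5–63.5 to 19.8–24.7 CPM (-1.30 ± 0.09, adjusted p = 9.42e-14). Cyr61, a matricellular protein and target of the mechanosensitive factor YAP, fell from 196–421 to 42.9–78.2 CPM (-2.54 ± 0.22, adjusted p = 6.06e-11). Of 10 measured YAP-responsive genes Cyr61 and Tead1 fell, Axl rose (0.79 ± 0.09) and 7 were not called (median -0.31). The joints of 1-week lay below those of 0-day without overlap in 6 and above them in 1, against 13.0% and 11.0% of all genes. Tead1 was not called with the level of fast muscle transcripts in each library as a covariate, and 1 factor of unwanted variation estimated from housekeeping genes (RUVg) left 1 fall. Ctgf, at 340.3–452 and 353–659 CPM, was not called (0.53 ± 0.14, adjusted p = 0.00241).

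**Figure D2:**
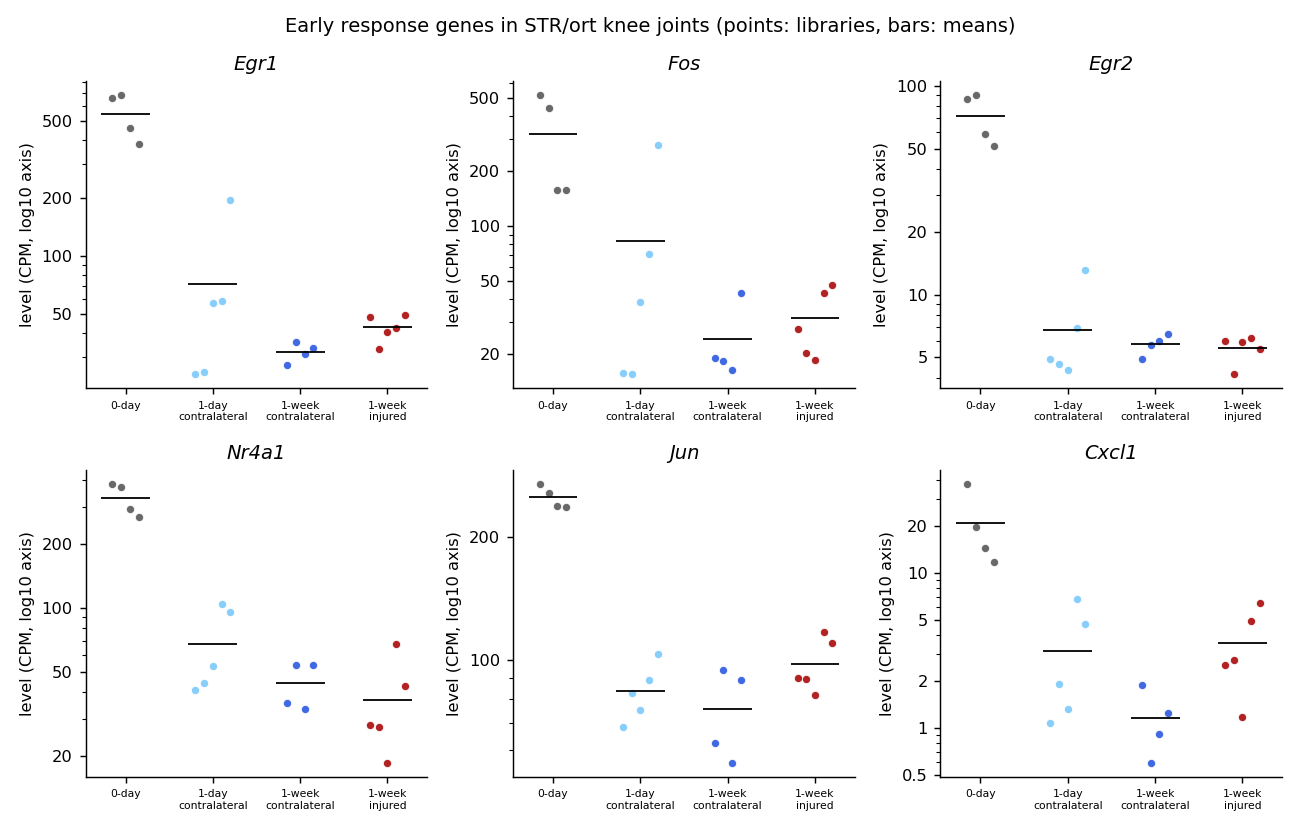
Level in CPM on a log10 axis of 6 genes (Egr1, Fos, Egr2, Nr4a1, Jun and Cxcl1) in each STR/ort library at 0-day (n = 4), in contralateral joints at 1-day (n = 5) and 1-week (n = 4) and in injured joints at 1-week (n = 5). Points are libraries and bars are group means, and in all 6 panels the 4 libraries of 0-day lie above all 4 contralateral libraries of 1-week.

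The promoters of 4 of the fallen genes are shown because their 250 bases before the start of transcription hold a cAMP response element (CRE, TGACGTCA) or a CArG box, the elements through which CREB and serum response factor are known to induce immediate early genes. The sequences are from RefSeq on build GRCm38.p6 in the direction of the gene, and capitals mark the element. Btg2 (chr1:134079156-134079405, - strand) and Dusp1 (chr17:26508473-26508722, - strand) hold a CRE whose first base is 166 and 143 bases before the start. Zfp36 (chr7:28379229-28379478, - strand) holds a CArG box 58 bases before the start and Dusp5 (chr19:53528895-53529144, + strand) a pair of them 82 and 72 bases before it.
Btg2: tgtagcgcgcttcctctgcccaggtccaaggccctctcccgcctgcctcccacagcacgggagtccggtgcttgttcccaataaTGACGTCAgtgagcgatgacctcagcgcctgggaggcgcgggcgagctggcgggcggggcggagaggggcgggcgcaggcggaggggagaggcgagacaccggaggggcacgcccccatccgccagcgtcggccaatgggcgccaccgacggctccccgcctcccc
Dusp1: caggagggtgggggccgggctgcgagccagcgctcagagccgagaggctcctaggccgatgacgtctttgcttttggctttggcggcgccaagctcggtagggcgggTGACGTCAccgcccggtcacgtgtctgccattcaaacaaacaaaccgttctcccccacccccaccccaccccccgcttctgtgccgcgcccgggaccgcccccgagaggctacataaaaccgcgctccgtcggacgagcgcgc
Zfp36: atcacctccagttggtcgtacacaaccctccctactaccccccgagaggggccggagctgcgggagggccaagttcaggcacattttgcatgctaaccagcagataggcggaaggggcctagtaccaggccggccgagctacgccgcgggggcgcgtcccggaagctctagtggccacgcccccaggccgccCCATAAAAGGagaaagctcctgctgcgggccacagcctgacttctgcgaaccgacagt
Dusp5: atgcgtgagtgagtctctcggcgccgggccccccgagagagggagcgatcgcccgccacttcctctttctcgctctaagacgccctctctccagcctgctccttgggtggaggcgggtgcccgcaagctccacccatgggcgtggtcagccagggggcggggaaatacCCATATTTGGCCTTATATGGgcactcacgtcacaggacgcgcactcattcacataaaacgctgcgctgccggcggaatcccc
Both strands were searched. Of the 18 fallen immediate early genes, 15 had 19 promoters in the table, of which 2 held a CRE and 6 (of 3 genes) a CArG box, against 1.55% and 1.47% of all 32851 promoters, and 0 held an AP-1 site (TGACTCA, in 4.46% of all promoters).

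The 4 genes with these promoters all fell without overlap. Btg2, an antiproliferative protein, read 399, 355, 201 and 199.8 CPM at 0-day and 74.6, 83.3, 117 and 109.6 CPM at 1-week (-1.54 ± 0.15, adjusted p = 2.09e-09). Dusp1, a phosphatase that switches off MAP kinases, read 121, 109.8, 76.9 and 75.2 and 19.3, 32.7, 17.5 and 49.5 CPM (-1.65 ± 0.22, adjusted p = 3.62e-07). Zfp36, which speeds the decay of cytokine messenger RNAs, read 185, 164, 90.3 and 91.7 and 40.6, 38.4, 41.5 and 45.4 CPM (-1.64 ± 0.17, adjusted p = 7.66e-09), and Dusp5, another MAP kinase phosphatase, 3.70, 4.81, 2.77 and 2.87 and 0.885, 1.92, 1.5 and 1.25 CPM (-1.29 ± 0.30). The 0-day joints again split into the higher replicates 1 and 2 and the lower replicates 3 and 4 in Btg2, Dusp1 and Zfp36, while the joints of 1-week had no such split in common.

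Most inflammatory genes were not called. Of 23 measured cytokines and chemokines, 5 fell, 2 rose and 16 were not called, with a median of 0.20. Of all genes tested, 7.48% were called lower and 6.31% higher. Cxcl1, a chemokine that draws neutrophils, read 37.6, 19.7, 14.5 and 11.7 CPM at 0-day and 1.90, 0.598, 0.917 and 1.25 CPM at 1-week (-4.15 ± 0.42, adjusted p = 6.29e-09), with every joint of 0-day at least 6 times any joint of 1-week. Il1b, a pyrogenic cytokine, read 50.5, 44.5, 35.2 and 38.3 CPM and 24.8, 20.7, 18.6 and 19.7 CPM (-0.97 ± 0.20, adjusted p = 0.000223), also without overlap. Il6 (0.213–2.63 and 0.453–0.718 CPM, adjusted p = 0.0489) and Ccl2 (3.49–6.85 and 1.36–4.17 CPM, adjusted p = 0.0447) passed the threshold narrowly at low levels with overlapping groups, as did Cxcl2, a relative of Cxcl1, at 0.481–0.779 and 0–0.759 CPM. DESeq2 called 2 genes of this list lower, and leaving out 0-day replicate 1 or any of the 1-week replicates 2, 3 and 4 also gave 2 (0-day replicate 2 gave 3). Ptgs2, the inducible cyclooxygenase that makes prostaglandin precursors, fell from 7.66–14.2 to 1.67–3.54 CPM (-2.12 ± 0.25, adjusted p = 4.85e-08).

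The rises among cytokines were Cxcl14 and Il11. Cxcl14, a chemokine of epithelium and stroma, read 109, 82.9, 82.8 and 68.5 CPM at 0-day and 162, 141, 115 and 144 CPM at 1-week (0.75 ± 0.13, adjusted p = 1.63e-05). Il11, a cytokine of the IL-6 family, rose at low counts (0.481–1.12 to 1.26–2.87 CPM, adjusted p = 0.023). Leaving out replicate 3 of 1-week gave 4 rises in the list, and all 70 libraries gave 1. Of 14 NF-kB feedback genes, Ptgs2 fell and Traf1 rose (1.70–3.31 to 3.06–6.58 CPM, adjusted p = 0.00614), and the other 12 were not called, Nfkb1 among them (0.25 ± 0.07). Traf1 was not called with 1 RUVg factor, with the muscle covariate, with only the groups compared or without replicate 1 of 1-week, and 3 genes of the list were called lower with 1 RUVg factor or the covariate. Il1b, Il6, Ccl2, Cxcl1, Cxcl2, Egr1, Fos, Jun, Cebpb, Ptgs2, Plk3 and Areg belong to lists that the study drew up from the level in 0-day STR/ort joints against the other strains, a choice made on the same 0-day libraries, so their falls are not independent evidence of a direction. Areg, an epidermal growth factor receptor ligand, was at 0.125–0.682 and 0–0.126 CPM (adjusted p = 0.0241). Plk3, a stress-responsive kinase, fell from 8.30–13.1 to 5.33–6.20 CPM (-0.93 ± 0.18, adjusted p = 0.000113), while Rhob (-0.29 ± 0.11, adjusted p = 0.04) and Id3 (-0.31 ± 0.15, adjusted p = 0.0935) of the same set were not called, and Duox1, which makes hydrogen peroxide, rose (1.10 ± 0.28, adjusted p = 0.00248). Of 13 prostaglandin and leukotriene genes Ptgs2 fell, Ptgis (prostacyclin synthase) and Ltc4s (leukotriene C4 synthase) rose by 0.85 and 0.96 on the log2 scale, and 10 were not called. Neither rise was called with 1 RUVg factor or the muscle covariate.

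Skeletal muscle transcripts were lower in the contralateral joints at 1-week. All 19 genes of fast muscle fell (median -1.16), as did 8 of 12 slow muscle genes (median -1.21), while the other 4 slow genes were not called. The summed level of the 19 fast genes was 114138, 113335, 116498 and 132518 CPM in the joints of 0-day and 41388, 76727, 44117 and 46801 CPM in the contralateral joints of 1-week, so that replicate 2 held the most muscle transcript at 1-week and yet less than any joint of 0-day. Myh2, a myosin heavy chain of oxidative fast fibres, fell from 1172–1597 to 261–458 CPM (-2.03 ± 0.25, adjusted p = 1.31e-07). Tnnc2, the fast calcium sensor troponin C, fell from 7795–11791 to 2846–4786 CPM (-1.39 ± 0.21, adjusted p = 1.67e-06). Mylk2, the kinase of skeletal myosin light chain, fell from 341–454 to 112–223 CPM (-1.33 ± 0.21).

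Less muscle tissue on the dissected joint and less of these transcripts per muscle fibre cannot be told apart in RNA from a whole joint, and the same holds for every cell type below. Among slow muscle genes, Myoz2, a sarcomere protein, fell from 55.9–108 to 11.6–34.0 CPM (-1.86 ± 0.33, adjusted p = 2.55e-05), and Casq2, a calcium store protein, fell by 1.48 on the log2 scale. Myh7, the slow myosin heavy chain, overlapped between the groups (171–337 and 39.8–251 CPM, adjusted p = 0.161). The count of slow muscle genes called was 5 without 0-day replicate 4 or without 1-week replicate 3. In the list of 12 muscle regeneration genes 4 fell and Igf1, a growth factor, rose (0.86 ± 0.17). Des, the muscle intermediate filament desmin, fell from 1891–2809.9 to 628–1046 CPM (-1.49 ± 0.18, adjusted p = 8.13e-08), and Myf6, a myogenic transcription factor, from 42.5–70.5 to 14.3–21.7 CPM (-1.60 ± 0.21). The ubiquitin ligases of muscle atrophy, Fbxo32 and Trim63, fell too, by 1.44 and 1.12 on the log2 scale (adjusted p = 5.11e-05 and 0.00013), among 7 of 16 atrophy and denervation genes that fell and 4 that rose. One of the rises was Mt2, a metallothionein that answers to metals and glucocorticoids, at 92.3, 78.0, 179 and 165 CPM at 0-day and 353, 424, 298 and 262 CPM at 1-week (1.43 ± 0.22, adjusted p = 2.88e-06).

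All 20 genes of the mitochondrial respiratory chain fell, with a median of -0.90, and in each the joints of 1-week lay below those of 0-day. Uqcrfs1, the iron-sulphur subunit of complex III, read 241, 240.1, 309 and 343 CPM at 0-day and 95.5, 131, 116 and 125 CPM at 1-week (-1.23 ± 0.13, adjusted p = 1.12e-08). Cox6a2, the muscle form of a complex IV subunit, fell from 278–598 to 83.7–136 CPM (-1.99 ± 0.23), and Uqcrc1 and Uqcrc2 fell by 1.09 and 1.07 on the log2 scale. Of 16 glycolysis genes 8 fell and 0 rose. Hk2, a hexokinase, fell from 174–228 to 77.4–94.6 CPM (-1.23 ± 0.14, adjusted p = 4.29e-08), and Slc2a4, the insulin-responsive glucose transporter, from 207–318 to 69.9–124 CPM (-1.38 ± 0.19). Pkm and Gapdh were below 0-day in all 4 joints but under the fold threshold (-0.57 ± 0.12 and -0.55 ± 0.14).

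Lipid genes were lower in part. Of 13 genes of fatty acid synthesis 6 fell, with Dgat2, which makes triglycerides, at 43.0, 43.9, 58.7 and 52.9 CPM and 24.9, 30.2, 16.8 and 15.98 CPM (-1.14 ± 0.17, adjusted p = 1.44e-06) and Acacb, the muscle acetyl-CoA carboxylase, at 78.0–89.8 and 29.0–42.5 CPM (-1.23 ± 0.19). Scd1, the stearoyl-CoA desaturase, was not called (-0.60 ± 0.31) and was uneven at 0-day, with 467, 322, 1506 and 1234 CPM in replicates 1 to 4 against 639, 683, 393 and 532 CPM at 1-week. Of 16 fat cell genes 6 fell and 1 rose, and the falls included Cox8b (-1.51 ± 0.21), which muscle also expresses, and Lpl, lipoprotein lipase (-0.81 ± 0.15, adjusted p = 5.49e-05). Ucp1, the uncoupling protein of brown fat, read 0, 0.120, 24.8 and 18.2 CPM at 0-day and 0, 2.63, 0 and 1.47 CPM at 1-week (adjusted p = 0.0043), and Cidea, another gene of brown fat, 1.75, 2.52, 27.1 and 15.5 and 0.759, 3.71, 0.333 and 1.93 CPM (-2.81 ± 0.56, adjusted p = 0.000144). For both genes the level at 0-day came from replicates 3 and 4, while replicates 1 and 2 lay within the range of 1-week. Ldhb, a lactate dehydrogenase of oxidative tissue, fell from 74.4–93.2 to 23.4–30.7 CPM (-1.60 ± 0.19).

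With the summed fast muscle level of each library as a covariate in the fit, an alternative chosen after the data were seen, 756 genes were called higher and 244 lower. Under it 3 of 20 mitochondrial genes, 1 of 16 glycolysis genes, 1 of 13 fatty acid synthesis genes, 1 of 12 muscle regeneration genes and 0 of the slow muscle, fat cell and atrophy genes were called lower. Of the 144 called genes whose values are given here, 49 were not called under it, namely Acacb, Acan, Adamts1, Areg, Bhlhe41, Casq2, Ccl2, Cd28, Ciart, Cidea, Cox8b, Csf1r, Ctsk, Cxcl2, Des, Dkk1, Dnajc3, Dusp5, Fbxo32, Hk2, Hmox1, Hspa5, Ibsp, Ighv14-3, Igkv12-44, Igkv3-7, Igkv6-32, Il11, Il6, Jchain, Lpl, Ltc4s, Mylk2, Myoz2, Pla2g2a, Ptgis, Serpine2, Slc2a4, Sod2, Spp1, Tead1, Tnfrsf11b, Tnnc2, Traf1, Trim63, Ucp1, Uqcrc1, Uqcrc2 and Wif1. Tnnc2 and Mylk2 among these are part of the fast muscle sum itself, so the loss of their calls is no check. The covariate fit called 18 of 27 immediate early genes lower, 16 of them shared with the fit without the covariate, and Dusp5 and Nr4a3 were the 2 no longer called. The study normalised with RUVSeq on its 25 housekeeping genes, and TMM took its place here because the number of factors is not stated. With 1 factor of unwanted variation estimated from these genes (RUVg), the counts were 646 higher and 251 lower. Of the 144 called genes, 41 were not called with this factor. Called lower were 18 immediate early, 3 mitochondrial, 2 fast muscle, 1 fat cell, 1 glycolysis, 1 fatty acid synthesis, 1 muscle regeneration, 0 slow muscle and 0 atrophy genes.

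**Figure D3:**
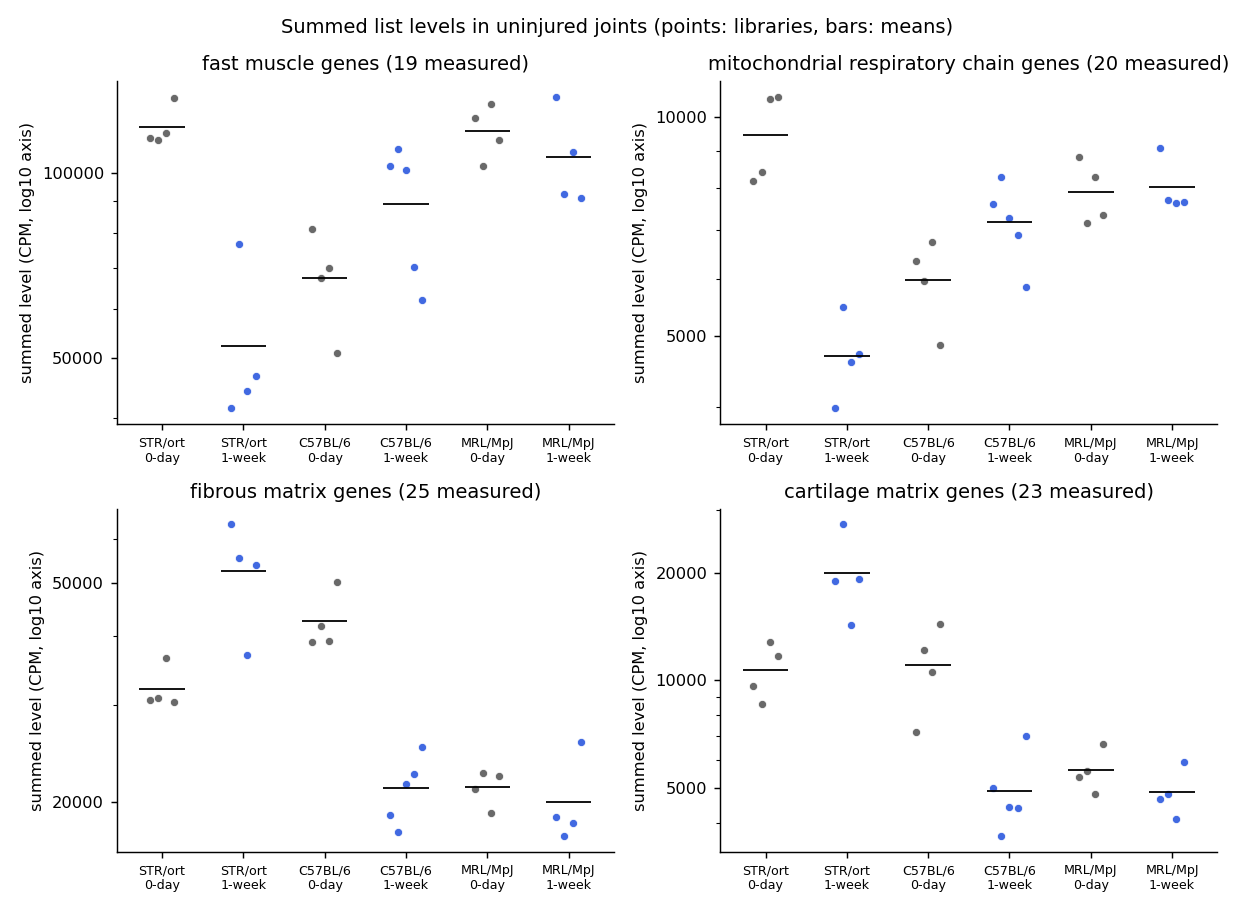
Summed CPM of the members of 4 gene lists (fast muscle, mitochondrial respiratory chain, fibrous matrix and cartilage matrix) in each uninjured library of the 3 strains at 0-day and 1-week, on log10 axes. Points are libraries and bars are group means, and the fast muscle sum of STR/ort is 113335–132518 CPM at 0-day and 41388–76727 CPM in contralateral joints at 1-week. A large part of the cartilage sum of STR/ort is Prg4, which is also in the synovial list.

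Most fibrous matrix genes rose. Of 25 fibrous matrix genes 19 rose, 0 fell and 6 were not called (median 0.80). Fn1, the adhesive glycoprotein fibronectin, read 3651, 2279.7, 2801 and 3728 CPM at 0-day and 8227, 12906, 4029 and 7968 CPM at 1-week (1.46 ± 0.20, adjusted p = 4.44e-07). Replicate 2 was the highest and replicate 3 the lowest joint of 1-week, and all 4 lay above 0-day. Col6a3, a chain of the type VI collagen of pericellular matrix, read 292, 260.4, 339 and 309.9 and 921, 844, 495 and 622 CPM (1.31 ± 0.17, adjusted p = 1.74e-07). Tnc, tenascin C, rose from 429–569 to 805–1324 CPM (1.00 ± 0.13), and Col14a1, a collagen on the surface of fibrils, from 53.5–86.6 to 100.3–217 CPM (1.31 ± 0.20). Col1a2, the second chain of type I collagen, overlapped (6109.6–8687 and 7578–11867 CPM, adjusted p = 0.0906), and Sparc was under the fold threshold (0.52 ± 0.14). In the injured joints of the same time Col6a3 was at 1330.0–2166 CPM and Fn1 at 7101–9958 CPM, given as levels with no test.

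Synovial and cartilage genes followed in part. Of 12 synovial lubricin and hyaluronan genes 5 rose and 0 fell. Prg4, the lubricin of the joint surface, read 4313, 2534, 4566 and 6202 CPM at 0-day and 8866, 18379.7, 6178 and 9103 CPM at 1-week (1.32 ± 0.23, adjusted p = 1.97e-05), where replicate 3 of 1-week fell just below replicate 4 of 0-day. Prg4 is also in the cartilage list, whose summed level was 9663.5, 8608.1, 12824.8 and 11701.8 CPM at 0-day and 18917.4, 27273.4, 14242.4 and 19191.6 CPM at 1-week. Ugdh, which makes the precursor of hyaluronan, read 116, 106, 102 and 108 and 189.8, 212, 144 and 158 CPM (0.75 ± 0.09, adjusted p = 5.24e-08) without overlap. Htra4, a serine protease, and Pdpn, podoplanin of lining fibroblasts, rose by 1.23 and 1.14 on the log2 scale with groups that overlapped in replicate 3 of 1-week.

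Of 23 cartilage matrix genes 9 rose, 0 fell and 14 were not called (median 0.51). Cilp, a protein of the middle zone of cartilage, read 249, 173, 212 and 144 and 541, 465, 313 and 435 CPM (1.21 ± 0.18, adjusted p = 1.88e-06), and Comp, cartilage oligomeric matrix protein, 529, 391, 528 and 405 and 1017, 1174, 729 and 1323 CPM (1.24 ± 0.20, adjusted p = 7.86e-06). Acan, the aggrecan core protein, rose from 279.6–430.0 to 489–610.4 CPM (0.77 ± 0.22, adjusted p = 0.00534). Col2a1 and Col11a1, the fibrillar collagens of hyaline cartilage, were not called, and their groups overlapped (Col2a1 1828–3542 and 3039–3706 CPM, 0.51 ± 0.30; Col11a1 0.44 ± 0.18). With the fast muscle covariate 4 of 23 cartilage genes were called higher (also 4 with 1 RUVg factor), and 18 of 25 fibrous matrix genes.

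Tendon and basement membrane genes made up smaller groups. Of 9 tendon and ligament genes 3 rose (Tnxb, Thbs4 and Tnmd, by 0.85, 0.83 and 0.92) and 1 fell, which was Egr1. The groups overlapped for Thbs4 and Tnmd, and 5 rises were called without 0-day replicate 3. Of 12 basement membrane genes 5 rose and 0 fell, led by Lamb1, a laminin chain, at 72.6, 51.3, 66.7 and 62.6 and 136, 137, 62.8 and 125 CPM (0.90 ± 0.16, adjusted p = 3.99e-05). Replicate 3 of 1-week was within the range of 0-day for Lamb1. The count of basement membrane genes called was 3 with RLE factors, 1 with housekeeping scaling and 8 with the fast muscle covariate. It was 1 without replicate 1 of 1-week and 2 without replicate 2 of 1-week or without replicate 1 or 2 of 0-day.

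Some enzymes that cut the matrix were higher. Of 16 measured matrix metalloproteinases 5 rose, 1 fell (Mmp15, not called with the fast muscle covariate or 1 RUVg factor) and 10 were not called. Mmp3, stromelysin 1, read 27.9, 7.93, 10.4 and 15.97 CPM at 0-day and 92.4, 83.3, 26.1 and 57.1 CPM at 1-week (2.08 ± 0.31, adjusted p = 2.05e-06), and the groups met only where replicate 3 of 1-week lay below replicate 1 of 0-day. Mmp2, gelatinase A, read 299, 247, 287 and 237 and 569, 602, 331 and 506 CPM (0.95 ± 0.14, adjusted p = 1.86e-06), and Mmp19 16.9, 10.7, 15.96 and 15.3 and 52.1, 32.7, 18.8 and 37.4 CPM (1.28 ± 0.19, adjusted p = 1.73e-06). The collagenase Mmp13 was not called (403–625 and 433–779 CPM, adjusted p = 0.39). Of the 4 tissue inhibitors, Timp1 and Timp2 rose by 1.10 and 0.80 (adjusted p = 2.8e-05 and 5.21e-07) and Timp3 and Timp4 were not called.

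Of 18 ADAMTS proteases 7 rose, 1 fell and 10 were not called (4 higher with 1 RUVg factor). Adamts15, which can cut aggrecan and versican, had the smallest adjusted p of the list, with 5.26, 4.93, 5.21 and 5.61 CPM at 0-day and 18.8, 23.2, 12.7 and 16.9 CPM at 1-week (1.80 ± 0.16, adjusted p = 2e-10). The lowest joint of 1-week was more than 2 times the highest of 0-day. Adamts2, which trims procollagen, rose from 51.1–67.5 to 82.0–129 CPM (0.87 ± 0.11), while Adamts1 fell from 104–126 to 38.2–69.2 CPM (-1.05 ± 0.17, adjusted p = 4.05e-06), a call that ended with the fast muscle covariate. Medag, a fat cell differentiation gene that was among the 10 largest rises without overlap and with a mean of at least 1 CPM, read 45.4, 26.4, 44.7 and 53.4 CPM at 0-day and 165, 201, 70.9 and 157 CPM at 1-week (1.85 ± 0.20, adjusted p = 1.13e-08).

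Of 18 osteoblast and osteocyte genes 9 rose and 0 fell (median 0.60), and of 12 osteoclast genes 8 rose and 0 fell (median 0.63). Ibsp read 1356, 1566, 1528 and 1154 CPM at 0-day and 2448, 1863, 2304 and 2993 CPM at 1-week (0.82 ± 0.16, adjusted p = 0.000104), and Spp1, osteopontin, 829, 981, 1153 and 821 and 1619, 1466, 1829 and 1279.6 CPM (0.75 ± 0.15, adjusted p = 0.000125). The osteocyte gene Dmp1 was not called (-0.27 ± 0.20). Tnfrsf11b, the decoy receptor osteoprotegerin, rose from 16.7–23.7 to 34.8–45.5 CPM (0.97 ± 0.19, adjusted p = 8.9e-05), and Ctsk, the protease with which osteoclasts digest bone collagen, from 279–366 to 483–526 CPM (0.63 ± 0.15, adjusted p = 0.000759). With the fast muscle covariate 1 of 18 osteoblast genes and 0 of 12 osteoclast genes were called higher, and with 1 RUVg factor 0 and 1. Dmp1 was called lower with the covariate (-0.88), and housekeeping scaling gave 5 osteoblast and 3 osteoclast genes called higher. Without replicate 1 of 1-week 5 osteoblast genes were called, and 3 osteoclast genes without replicate 4 of 0-day (5 without replicate 3 of 1-week).

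Of 17 Wnt receptors and antagonists 6 rose and 1 fell. Fzd1, a receptor, rose from 13.8–20.2 to 25.7–33.8 CPM (0.89 ± 0.13, adjusted p = 1.85e-06), and the secreted inhibitors Wif1 and Dkk1 rose from 90.4–124 to 168–244 CPM (0.90 ± 0.14) and from 14.2–20.7 to 23.3–45.8 CPM (1.05 ± 0.20). With the fast muscle covariate 1 of the 17 was called higher and 1 lower, and with 1 RUVg factor 2 and 1.

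Of 14 macrophage genes 7 rose, 0 fell and 7 were not called (median 0.60), and of 14 complement genes 6 rose, 0 fell and 8 were not called (median 0.50). Cd163, a haemoglobin scavenger receptor of resident macrophages, read 29.5, 29.3, 32.1 and 27.8 CPM at 0-day and 107, 49.8, 42.2 and 57.4 CPM at 1-week (1.14 ± 0.17, adjusted p = 1.17e-06), with replicate 1 standing above the others. Mrc1, the mannose receptor, read 92.1, 76.9, 71.5 and 80.7 and 169, 122, 102 and 144 CPM (0.78 ± 0.11, adjusted p = 4.15e-07), and Csf1r, the receptor on which macrophages depend, 157, 148, 132 and 137 and 255, 207, 199 and 199.9 CPM (0.63 ± 0.10). Itgam, shared with neutrophils, was not called (0.20 ± 0.09). C1qa and C1qc, chains of the first complement component, rose by 0.99 and 1.15 (adjusted p = 4.59e-07 and 8.95e-08). With the fast muscle covariate 4 macrophage and 5 complement genes were called higher.

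In the other blood cell lists 7.69% to 13.3% of the genes were called, against 13.8% of all genes. Of 16 neutrophil and marrow granule genes 2 rose (Chil3 and Stfa2l1), and the abundant S100a9 overlapped (3737–4447 and 3535–4738 CPM). Both rises lost their calls with 1 RUVg factor or the fast muscle covariate. Of 13 measured erythroid genes 1 rose (Tspo2), which became 0 with 1 RUVg factor, the fast muscle covariate, only the groups compared or without replicate 3 of either group, and 2 or 3 without replicate 1 of 0-day or replicate 1, 2 or 4 of 1-week. Of 9 mast cell genes 1 rose (Mcpt4), which became 0 with 1 RUVg factor, housekeeping scaling or without replicate 3 or 4 of 0-day or 1, 2 or 4 of 1-week, and 2 without replicate 3 of 1-week. With the fast muscle covariate the 1 rise was Tpsb2 in place of Mcpt4. Of 12 T cell genes 1 fell (Cd28, -0.61 ± 0.20, adjusted p = 0.0168). Its call ended with 1 RUVg factor, the fast muscle covariate, only the groups compared or some library left out. In the list of 15 B cell genes Rag1, the recombinase of developing lymphocytes, fell, with 68.7, 61.4, 52.5 and 43.9 CPM at 0-day and 16.2, 17.1, 18.5 and 52.1 CPM at 1-week (-1.09 ± 0.22, adjusted p = 0.000124), and Jchain of antibody-secreting cells rose (0.78 ± 0.28, adjusted p = 0.0264). Replicate 4 of 1-week lay within the range of 0-day in Rag1, and the other 3 lay below it. The Jchain call ended with 1 RUVg factor, the fast muscle covariate or some library left out. The fast muscle covariate gave 7 of the 15 B cell genes called lower and 1 RUVg factor 5, and leaving out replicate 4 of 1-week gave 4 (2 without replicate 1 of 1-week or replicate 2 or 4 of 0-day).

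The 10 largest rises without overlap and with a mean of at least 1 CPM in either group included 6 antibody variable segments, but 7 of the 10 genes had a mean below 1 CPM at 0-day and entered through the 1-week group alone, so the ranking is given as a description. Igkv6-32 read 7.50, 4.69, 3.19 and 3.74 CPM at 0-day and 61.5, 19.7, 43.7 and 14.3 CPM at 1-week (2.88 ± 0.55, adjusted p = 7.2e-05), and Igkv3-7, Igkv2-112, Igkv5-45, Igkv12-44 and Ighv14-3 reached at most 7.84 CPM in any of the 4 joints of 1-week. These segments belong to families of near-identical copies between which counting can divide reads, so the value of a single segment is uncertain. The other 4 were Medag, Npy2r (a neuropeptide Y receptor, 0.120–0.584 to 1.58–2.27 CPM), Pla2g2a (a secreted phospholipase, 0–1.20 to 1.42–5.33 CPM) and Pkp1 (plakophilin 1 of desmosomes, 0.961–1.46 to 2.58–8.62 CPM). Besides 6 members of the immediate early list and Arc, the 10 largest falls chosen in the same way were Nppc, the C-type natriuretic peptide (1.80–2.92 to 0–0.567 CPM), Snord14c, a small nucleolar RNA (0.748–1.80 to 0.120–0.250 CPM), and Cxcl1.

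Interferon-stimulated genes (20 measured), class II histocompatibility genes (10), endothelial genes (14) and proliferation genes (16) had 0 members called. Medians were -0.11, 0.25, 0.08 and 0.15, and the 25 housekeeping genes also had 0 called. RUVg with 1 and 2 factors called 1 and 2 interferon-stimulated genes lower. Leaving out 1 library gave at most 1 interferon-stimulated or class II gene higher and 1 housekeeping gene in either direction. Housekeeping scaling or all 70 libraries gave 1 housekeeping gene lower. At an unadjusted p below 0.05 in edgeR, 1 interferon-stimulated, 2 class II, 8 endothelial, 1 proliferation and 16 housekeeping genes were counted, beside 7250 of all 17281 genes. The endothelial and housekeeping lists lay above that share and the others below it. All of these members had fold changes or adjusted p values short of a call, and DESeq2 called 0 in each of the 5 lists. Of 12 nerve and Schwann cell genes 3 fell, and 0 were called lower with the fast muscle covariate or 1 RUVg factor and 1 without replicate 1 or 3 of 0-day or replicate 3 of 1-week. Of 3 measured skin genes Sbsn rose (1.12 ± 0.24), and of 74 ribosomal protein genes 1 fell, with a median of 0.27. Of the 4 genes of the Y chromosome Eif2s3y fell (89.8–96.1 to 40.5–62.6 CPM, -0.78 ± 0.12), and Ddx3y was present at 162–191 CPM and 119–141 CPM. The 4 genes summed to 321.2–370.6 CPM at 0-day and 225.1–270.1 CPM at 1-week, and the female gene Xist was at 3.245–6.362 and 1.644–4.75 CPM.

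Of 12 genes of endoplasmic reticulum stress 6 rose and 0 fell (median 0.53). Sdf2l1, a partner of protein folding, read 19.9, 23.4, 21.3 and 24.7 CPM at 0-day and 42.4, 38.4, 40.7 and 41.6 CPM at 1-week (0.92 ± 0.10, adjusted p = 2.28e-08). Creld2, a stress-inducible folding factor, read 33.8, 26.6, 31.2 and 31.7 and 74.4, 61.0, 48.6 and 60.4 CPM (1.02 ± 0.12, adjusted p = 3.72e-08), and Hspa5, the chaperone BiP, 724, 678, 940.4 and 796 and 1331, 1096, 994 and 1205 CPM (0.60 ± 0.08, adjusted p = 4.96e-07). All 4 joints of 1-week were above all 4 of 0-day in the 3 genes. Pdia4, a disulphide isomerase, rose from 103–107 to 149.7–244 CPM (0.95 ± 0.11), and outside the list Dnajc3, a co-chaperone of BiP, from 110.0–121 to 157–199.7 CPM (0.65 ± 0.06, adjusted p = 7.13e-10). Xbp1 and Atf4, transcription factors of the same response, were not called (0.46 ± 0.10 and -0.28 ± 0.12). With the fast muscle covariate 3 of the 12 genes were called higher, and Hspa5 was not among them.

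The promoters of Hspa5 (chr2:34771840-34772089, + strand) and Creld2 (chr15:88819396-88819645, + strand) are shown because they hold the element through which this response is known to act, CCAAT and CCACG with 9 bases of any kind between them, in capitals below. It begins 65 bases before the start of Hspa5 and, on the opposite strand, 126 bases before that of Creld2.
Hspa5: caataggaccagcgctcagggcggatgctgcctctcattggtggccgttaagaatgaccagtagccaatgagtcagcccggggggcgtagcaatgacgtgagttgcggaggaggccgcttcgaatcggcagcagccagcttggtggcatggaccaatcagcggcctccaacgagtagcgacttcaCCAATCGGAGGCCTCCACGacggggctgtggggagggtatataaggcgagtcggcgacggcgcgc
Creld2: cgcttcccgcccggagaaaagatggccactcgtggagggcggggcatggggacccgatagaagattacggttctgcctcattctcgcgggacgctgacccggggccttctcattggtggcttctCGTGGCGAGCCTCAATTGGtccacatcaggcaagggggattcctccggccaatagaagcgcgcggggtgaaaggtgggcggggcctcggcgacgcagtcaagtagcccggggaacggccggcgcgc
The element, chosen after the data were seen, was found in 2 of the 6 promoters of the genes that rose and in 0.113% of all promoters on either strand.

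Of 15 heat shock genes 7 fell and 0 rose (median -0.26), and 3 were called lower with the fast muscle covariate or with 1 RUVg factor. Dnajb1, a co-chaperone of Hsp70, read 103, 115, 98.7 and 90.7 CPM at 0-day and 28.8, 36.0, 46.7 and 46.1 CPM at 1-week (-1.32 ± 0.13, adjusted p = 7.13e-10). The inducible Hsp70 genes Hspa1a and Hspa1b, near-identical copies whose reads counting can divide, fell by 2.28 and 1.61 on the log2 scale. The constitutive Hspa8 overlapped (2758–3000.1 and 2394–3351 CPM, 0.07 ± 0.10). Under housekeeping scaling the log2 fold change of Hspa8 was -0.02.

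Of 19 genes of the circadian clock 3 rose, 11 fell and 5 were not called. The fast muscle covariate gave 6 called lower and 1 RUVg factor 7, and 4 higher with either. Arntl, the activator at the head of the clock, read 10.5, 10.5, 15.1 and 14.2 CPM at 0-day and 26.8, 34.4, 19.6 and 29.6 CPM at 1-week (1.17 ± 0.14, adjusted p = 8.1e-08), and Npas2 and Nfil3 were the other rises (1.57 ± 0.24 and 0.78 ± 0.13). Tef, an output transcription factor, read 132, 133, 158 and 140.0 and 43.9, 54.3, 53.9 and 51.2 CPM (-1.42 ± 0.15, adjusted p = 8.06e-09), and Nr1d2, a repressor of Arntl, 95.4, 96.3, 113 and 107 and 33.6, 38.7, 43.6 and 33.0 CPM (-1.42 ± 0.15, adjusted p = 1.13e-08). Dbp fell from 13.6–19.8 to 1.77–4.17 CPM (-2.38 ± 0.31) and Bhlhe40, a repressor that also answers to stress, from 179–200.3 to 67.3–86.1 CPM (-1.22 ± 0.13, adjusted p = 1.13e-08). The groups did not overlap in any of the 3 rises or in 10 of the 11 falls, the exception being Per1, where over all genes 728 of 1091 called higher and 1154 of 1293 called lower had no overlap. The 5 not called included Clock (0.31 ± 0.11) and Cry1 (0.35 ± 0.10).

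Ciart (chr3:95882229-95882478, - strand) and Bhlhe41 (chr6:145865421-145865670, - strand) are shown with the E-box CACGTG, the element on which the clock activators bind, in capitals.
Ciart: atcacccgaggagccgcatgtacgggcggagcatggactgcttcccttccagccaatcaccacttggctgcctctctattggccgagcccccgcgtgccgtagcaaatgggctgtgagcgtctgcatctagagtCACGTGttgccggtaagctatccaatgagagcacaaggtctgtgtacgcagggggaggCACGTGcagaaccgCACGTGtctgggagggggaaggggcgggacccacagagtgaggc
Bhlhe41: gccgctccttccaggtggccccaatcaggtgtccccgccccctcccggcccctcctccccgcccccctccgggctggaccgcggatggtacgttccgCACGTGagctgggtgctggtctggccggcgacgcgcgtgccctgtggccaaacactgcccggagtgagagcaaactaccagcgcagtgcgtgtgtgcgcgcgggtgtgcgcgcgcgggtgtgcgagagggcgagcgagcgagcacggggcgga
Ciart, a clock repressor, holds 3 E-boxes, 116, 58 and 44 bases before its start, and Bhlhe41 holds 1 at 153. Ciart read 3.80, 4.69, 3.72 and 4.24 CPM at 0-day and 2.02, 1.80, 1.5 and 2.38 CPM at 1-week (-1.06 ± 0.22) and Bhlhe41 11.7, 13.8, 12.0 and 11.7 and 3.92, 7.66, 6.42 and 6.46 CPM (-0.96 ± 0.21). Of the clock genes that fell 9 had 11 promoters in the table, of which 5 (of 4 genes) held an E-box, against 0 of the 4 promoters of the 3 genes that rose and 6.02% of all promoters. Ciart and Bhlhe41 were not called with the fast muscle covariate.

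Among 15 glucocorticoid-responsive genes 3 rose and 4 fell. Fkbp5, a co-chaperone of the glucocorticoid receptor and one of its best known targets, read 47.8, 49.7, 46.4 and 51.8 CPM at 0-day and 112, 142, 130.2 and 142 CPM at 1-week (1.47 ± 0.09, adjusted p = 2.2e-14). The lowest joint of 1-week was more than 2 times the highest of 0-day. Angptl4, an inhibitor of lipoprotein lipase, read 31.1, 23.8, 23.7 and 22.0 and 137, 80.6, 64.1 and 64.4 CPM (1.81 ± 0.19, adjusted p = 7.45e-09), and Zbtb16, a zinc finger transcription factor, was the third rise (0.61 ± 0.18, adjusted p = 0.00639). Errfi1 and Cebpb, which also belong to the early response, fell by 1.28 and 1.27 on the log2 scale (adjusted p = 1.68e-07 and 1.37e-05). Under the fast muscle covariate or 1 RUVg factor 2 of the 15 were called lower. Of 15 antioxidant genes Gpx3, Sod3 and Hmox1 rose (by 0.79, 1.26 and 1.18) and the mitochondrial Sod2 fell (-1.01 ± 0.14), where Hmox1 and Sod2 were not called with the fast muscle covariate.

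**Figure D4:**
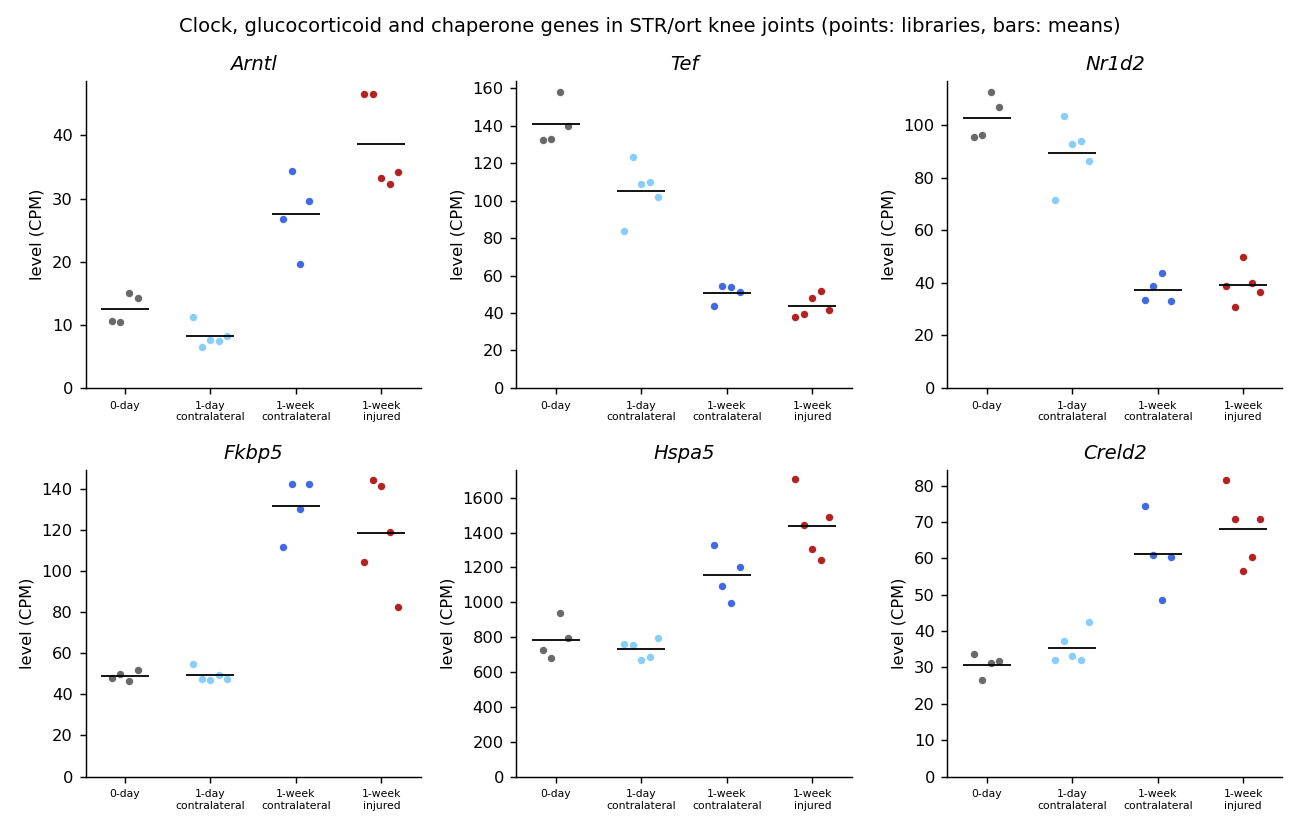
Level in CPM, on a linear axis from 0, of Arntl, Tef, Nr1d2, Fkbp5, Hspa5 and Creld2 in each STR/ort library at 0-day (n = 4), in contralateral joints at 1-day (n = 5) and 1-week (n = 4) and in injured joints at 1-week (n = 5). Points are libraries and bars are means, and the 4 contralateral libraries of 1-week lie apart from the 4 of 0-day in all 6 panels.

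The contralateral joints of 1-day show which differences were already present earlier. At 1-day 1735 genes (10.0%) were called against 0-day, 535 higher (3.10%) and 1200 lower (6.94%), and between the contralateral joints of 1-week and 1-day 325 genes (1.88%), 197 higher (1.14%) and 128 lower (0.741%) at 1-week. These comparisons share libraries with the one above, so their values are set side by side only. Egr2 was at 4.34–13.1 CPM at 1-day (-3.36 against 0-day) and Jun at 68.1–103 CPM (-1.56), and neither was called between 1-week and 1-day (-0.23 ± 0.24 and -0.14 ± 0.13). Egr1, Fos and Fosb were uneven at 1-day, at 24.4–195, 15.7–276 and 3.01–94.5 CPM, and were lower at 1-week than at 1-day (-1.16 ± 0.35, -1.78 ± 0.50 and -2.60 ± 0.63, adjusted p = 0.0414, 0.0274 and 0.00962). All 19 fast muscle genes and all 20 mitochondrial genes were called lower at 1-day too, and 0 of either list differed between 1-week and 1-day (medians -0.13 and -0.06).

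Other genes were called between the contralateral joints of 1-week and 1-day. Of the 12 endoplasmic reticulum stress genes 0 were called higher and 1 lower at 1-day against 0-day, and 6 were higher at 1-week than at 1-day. Fkbp5 was at 46.8–54.9 CPM at 1-day, close to the 46.4–51.8 CPM of 0-day (0.04 ± 0.09, not called), and rose from 1-day to 1-week (1.43 ± 0.09, adjusted p = 7.78e-15). Its list of 15 glucocorticoid-responsive genes had 9 called lower and 0 higher at 1-day against 0-day. In that list 4 were higher and 0 lower at 1-week than at 1-day. Arntl was at 6.50–11.2 CPM at 1-day and rose to 1-week by 1.75 (adjusted p = 1.52e-11), and Tef, at 83.7–123 CPM, fell (-1.04 ± 0.14, adjusted p = 6.68e-06). Of 19 clock genes 10 were called between 1-week and 1-day, 3 higher and 7 lower. Medag (48.3–60.6 CPM at 1-day, 1.46 ± 0.18) and Mmp3 (14.2–37.7 CPM, 1.64 ± 0.28) were also higher at 1-week than at 1-day. Of 15 B cell genes 3 were called higher and 0 lower at 1-day against 0-day, and 11 were lower at 1-week than at 1-day, Rag1 among them (-1.19 ± 0.21, adjusted p = 0.000223).

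The injured joints of 1-week are given as levels with no test. Egr1 was at 32.9–49.2 CPM and Egr2 at 4.17–6.20 CPM in them. Fkbp5 was at 82.5–144 CPM, Hspa5 at 1244–1709 CPM, Arntl at 32.3–46.6 CPM and Tef at 37.8–51.7 CPM, and each of these ranges lay on the same side of the 0-day range as the contralateral joints did. Adamts15 was at 21.7–32.6 CPM and Medag at 231–366 CPM. The summed fast muscle level was 20916–45718 CPM in the injured joints.

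The same comparison was made in the other strains, whose libraries are separate from those of STR/ort. In C57BL/6, 985 genes (5.70%) were called between contralateral joints at 1-week and 0-day, 181 higher (1.05%) and 804 lower (4.65%). In MRL/MpJ, edgeR called 0 genes (0%), with 952 at an unadjusted p below 0.05 and a smallest adjusted p of 0.439, and DESeq2 also called 0. Of the 1091 genes higher in STR/ort, 4 were also higher in C57BL/6 (0.367% of the STR/ort and 2.21% of the C57BL/6 genes), and of the 1293 lower, 13 were also lower (1.01% and 1.62%). In the opposite sense, 401 of the 1091 were called lower in C57BL/6 and 108 of the 1293 higher.

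The differences were tested directly. The 1-week change differed between STR/ort and C57BL/6 in 3746 genes (21.7%), with 2150 higher (12.4%) and 1596 lower (9.24%) in STR/ort, and between STR/ort and MRL/MpJ in 2139 genes (12.4%), with 991 higher (5.73%) and 1148 lower (6.64%). The median log2 fold change of the genes called higher in STR/ort was 0.815 in STR/ort, -0.501 in C57BL/6 and -0.056 in MRL/MpJ, and that of the genes called lower -1.014, 0.264 and -0.003, where the STR/ort medians follow from the choice of genes.

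Most immediate early genes changed by a different amount in STR/ort than in the other strains. Egr1 was at 26.8–43.1 CPM at 0-day and 11.2–21.7 CPM at 1-week in C57BL/6, and at 26.1–28.7 and 22.0–45.3 CPM in MRL/MpJ, so that the 0-day joints of STR/ort were above every one of these. The change in STR/ort minus that in C57BL/6 was -3.18 ± 0.52, and minus that in MRL/MpJ -4.26 ± 0.53. Egr1, Fos and Jun are among the genes the study chose for their level in these 0-day STR/ort joints against the other strains, and the difference of changes contains that gap, so the values are given with no test. For Jun these differences were -1.55 ± 0.19 and -2.01 ± 0.19. Over the list, these genes included, 15 of 27 had a lower change than in C57BL/6 and 21 than in MRL/MpJ, and 0 a higher one. Of all genes tested, 9.24% and 6.64% had a lower change and 12.4% and 5.73% a higher one. The list counts contain the same 0-day gap, so they are given as a description only. The median change of the list was -0.20 in C57BL/6 and 0.20 in MRL/MpJ. Fkbp5 changed by -0.13 in C57BL/6 and -0.16 in MRL/MpJ, neither called, and the differences from STR/ort were 1.60 ± 0.13 and 1.64 ± 0.13 (adjusted p = 3.19e-11 and 1.59e-10).

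Most fibrous matrix genes rose in STR/ort and fell in C57BL/6. Of 25 fibrous matrix genes 21 fell in C57BL/6 (median -0.90) and 0 rose, and 24 had a higher change in STR/ort than in C57BL/6. Fn1 changed by -0.96 ± 0.18 in C57BL/6 (2140.0–3111 to 1126–1477 CPM) and by 0.01 ± 0.20 in MRL/MpJ. Of 23 cartilage genes 22 fell in C57BL/6 (median -1.20), against 9 rises and 14 genes not called in STR/ort. Adamts15 fell in C57BL/6 (-0.85 ± 0.16), and its difference was 2.65 ± 0.22 (adjusted p = 6.77e-11). Fast muscle genes had a median of 0.385 in C57BL/6, with 1 called higher, and of -0.13 in MRL/MpJ, and 19 and 17 of the 19 had a lower change in STR/ort. In C57BL/6, 10 of 12 slow muscle genes rose (median 1.80). The summed fast muscle level was 50929.9–81154 CPM at 0-day and 62253–109509 CPM at 1-week in C57BL/6, and 102862–129531 and 91013–133397 CPM in MRL/MpJ. In STR/ort the fast muscle level was lower and the matrix level higher at 1-week, and in C57BL/6 the matrix genes fell while the muscle medians were above 0, and the part of muscle content in the matrix changes of C57BL/6 was not tested.

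For each strain difference the 5 genes of lowest adjusted p on either side are named. Higher than in C57BL/6 were the changes of Ccdc3, Pdgfra (a growth factor receptor of fibroblasts) and Tgfbr3 (a TGF-beta co-receptor), with differences of 2.15, 1.89 and 1.46, besides Fkbp5 and Adamts15. Lower were those of Atp1b1, Esrrg, Acadl, Smtnl1 and Fndc5, with differences of -2.16, -3.79, -1.62, -2.32 and -3.09, all genes that muscle expresses, with Acadl acting in fatty acid oxidation and Esrrg in oxidative metabolism. Against MRL/MpJ, Dnajc3, Cyp1b1 (a cytochrome P450) and Serpine2 (a protease inhibitor) had higher changes, with differences of 0.73, 1.34 and 1.00, and Hes1, Apold1 and Spry4 lower ones besides Jun and Nr4a1, with differences of -1.27, -2.72 and -2.07. Cyp1b1 read 50.1, 43.7, 60.0 and 51.3 CPM at 0-day and 109, 143, 100.4 and 113 CPM at 1-week in STR/ort (1.23 ± 0.11, adjusted p = 3.22e-10).

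Of 19 clock genes 1 rose and 1 fell in C57BL/6, and the median changes were -0.093 and -0.001 in C57BL/6 and MRL/MpJ. Arntl was at 18.7–28.3 CPM at 0-day and 25.4–29.0 CPM at 1-week in C57BL/6 and at 15.4–17.4 and 13.7–15.6 CPM in MRL/MpJ, and the change in STR/ort minus those changes was 0.96 ± 0.19 and 1.30 ± 0.21 (adjusted p = 0.000107 and 3.45e-05). Over the list, 9 of 19 genes had a lower change in STR/ort than in C57BL/6 and 11 than in MRL/MpJ, and 2 and 3 a higher one. For endoplasmic reticulum stress genes, 0 of 12 were called in C57BL/6, and 5 and 6 of the 12 had a higher change in STR/ort than in C57BL/6 and MRL/MpJ (1 and 0 a lower one).

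**Figure D5:**
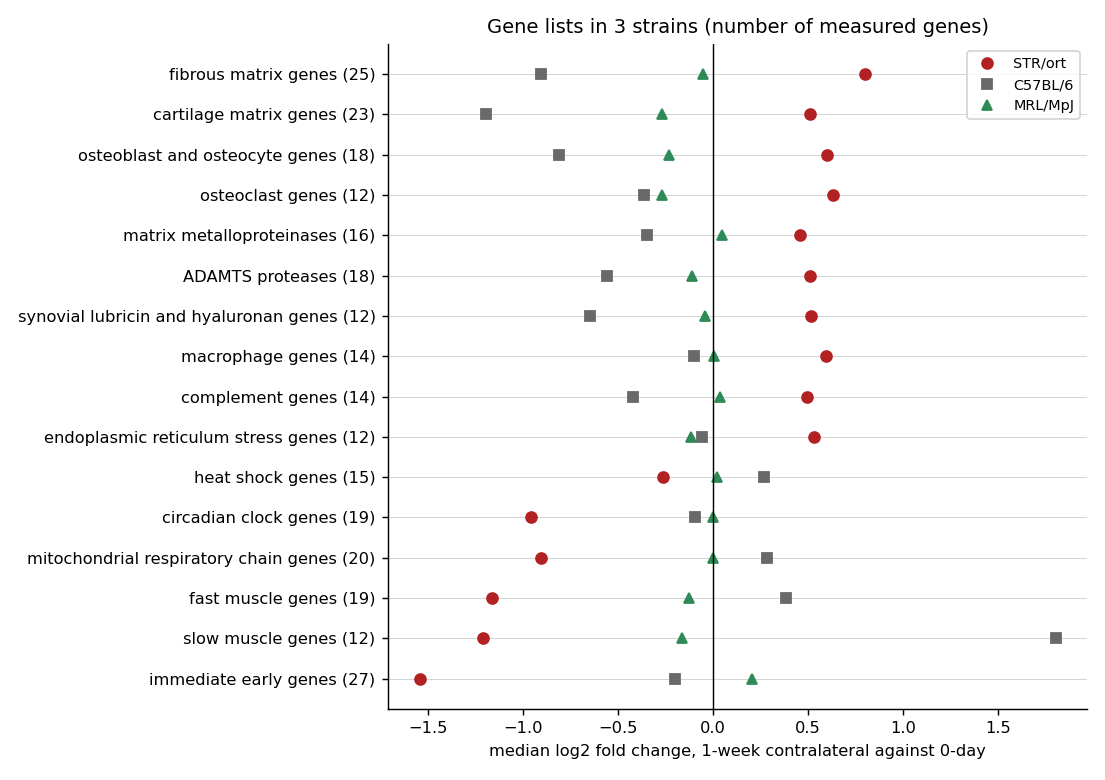
Median log2 fold change of contralateral joints at 1-week against 0-day for the measured members of 16 gene lists in the STR/ort, the C57BL/6 and the MRL/MpJ strain, with a line at 0. Points are medians over genes, and the fibrous matrix list lies at 0.80 in STR/ort, -0.90 in C57BL/6 and -0.05 in MRL/MpJ, while the immediate early list lies at -1.54, -0.20 and 0.20.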

How the data were processed

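Knee joints of 3 mouse strains were measured by poly(A) RNA sequencing in 100 libraries, 70 of them in experimental batch 1, which holds every library used here. The deposited values are raw read counts per gene that the authors made with TopHat2 2.0.11 on mm10 and featureCounts, per the labels. Of 17313 entries 3 repeats were dropped, and 24 gene names that had been turned into dates were kept but not named.

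Genes with at least 2 counts in at least 5 libraries (17281) were tested with edgeR 4.0.16 (R 4.3.3), TMM scaling and the quasi-likelihood test, with 1 mean for each of the 9 groups of the 40 uninjured libraries of batch 1 (31 residual degrees of freedom). The adjusted p threshold was 0.05 and the fold threshold 1.5, and the standard error is the log2 fold change divided by the square root of F. CPM were scaled by TMM over the 70 libraries. The script was tested on simulated data.

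Gene lists were described by counts and medians, without a set test. Named genes were the 10 largest rises and falls without overlap and with a mean of at least 1 CPM, members of each list (up to 4 called with the smallest adjusted p, up to 2 not called with the highest level), the 5 smallest adjusted p in each direction of each strain difference, and genes from the study's 0-day STR/ort lists. Other genes, such as Dbp, Npas2, Nfil3, Per1, Zbtb16, Nr4a3, Ciart, Bhlhe41, Btg2, Zfp36, Dusp1, Dusp5, Ucp1, Cidea, Igf1, Clock, Cry1, Xbp1 and Atf4, were named after their values were seen. Some genes that the rule names are not reported here. The members and lists were chosen with earlier results of these data known. Promoters are the 250 bases before each start in RefSeq GRCm38.p6, and 32851 were searched.

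Alternatives were RLE factors, scaling by the study's 25 housekeeping genes, RUVg with 1 or 2 factors from them, DESeq2 1.42.0, filterByExpr, no count filter, only the groups compared, all 70 libraries of batch 1, a replicate block, leaving out each library, and the fast muscle covariate, which was chosen after the data were seen.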

Additional observations from a re-analysis of the deposited data

Results flagged for a closer look

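Over the named genes, 336 groups of 4 libraries were examined for a library that stood apart from the other 3 by Dixon's test, and 20 (5.95%) held one, where chance gives about 5%. Replicate 4 of the 1-week contralateral joints was the highest in Fos (43.3 CPM, the others 16.4 to 19.1), Fosb (9.74), Arc (2.27), Cyr61 (78.2), Rag1 (52.1) and Pla2g2a (5.33). Replicate 1 of that group was the highest in Hmox1 (185.8 CPM, the others 60.8 to 68.8), Csf1r (255.0), Ccl2 (4.17) and Cxcl2 (0.759, the others 0). Replicate 2 was the highest in Gapdh (843.5 CPM), Pkp1 (8.62) and Npy2r (2.27) and the lowest in Cd28 (2.75), and replicate 3 the lowest in Lamb1 (62.8 CPM, the others 124.5 to 136.7) and Col2a1 (3039). At 0-day, replicate 2 stood apart in Bhlhe41 (13.8 CPM, highest), Igkv5-45 (0.120, highest, the others 0), Ltc4s (0.481, lowest) and Pdia4 (103.3, lowest). No explanation was tested.

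The change from 0-day to 1-week differed between strains by a test of the difference itself. It was higher in STR/ort than in C57BL/6 for 2150 genes and lower for 1596, and higher than in MRL/MpJ for 991 and lower for 1148. Against C57BL/6 the log2 difference was 2.15 for Ccdc3, 1.60 for Fkbp5, 1.89 for Pdgfra, 1.46 for Tgfbr3 and 2.65 for Adamts15, and -2.16 for Atp1b1, -3.79 for Esrrg, -1.62 for Acadl, -2.32 for Smtnl1 and -3.09 for Fndc5. Against MRL/MpJ it was 1.64 for Fkbp5, 0.73 for Dnajc3, 1.34 for Cyp1b1, 1.97 for Adamts15 and 1.00 for Serpine2, and -2.01 for Jun (which the study chose for its level in the same 0-day STR/ort joints, so that its difference is no independent evidence), -1.27 for Hes1, -3.15 for Nr4a1, -2.72 for Apold1 and -2.07 for Spry4.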

How the results depend on the processing

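Counts of higher and lower genes between 1-week contralateral and 0-day joints of STR/ort stayed within 1.5 times 1091 and 1293 with RLE factors (957 and 1371), DESeq2 (928 and 1351), filterByExpr (1034 and 1259), no count filter (1091 and 1292), all 70 libraries (929 and 1419), only the groups compared (798 and 1256) and a replicate block (1068 and 1286). Scaling by housekeeping genes gave 723 higher genes, 305 higher at 1-day and 500 with a higher change than in MRL/MpJ. RUVg with 1 factor gave 646 and 251, 40 and 62 at 1-day, 652 with a lower change than in C57BL/6, and 470 higher and 157 lower than in MRL/MpJ. With 2 factors these were 620 and 275, 27 and 61, 691, and 514 and 177. The fast muscle covariate gave 244 lower genes, 235 and 160 at 1-day, 543 lower than in C57BL/6 and 329 lower than in MRL/MpJ. With only the groups compared, which leaves fewer libraries to estimate the spread, 329 were higher at 1-day, 55 higher and 35 lower between 1-week and 1-day, and 1 higher in MRL/MpJ. The causes of the other shifts were not tested.

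Leaving out 1 library gave 918 (without 1-week replicate 1) to 1282 higher and 1151 to 1375 lower genes, 369 to 690 and 1030 to 1283 at 1-day, 819 to 1206 and 974 to 1254 for the difference from MRL/MpJ, and 1966 to 2288 and 1466 to 1672 for that from C57BL/6. Between 1-week and 1-day it gave 113 (without 1-week replicate 2) to 336 (without 1-week replicate 3) higher and 95 to 168 lower genes. In C57BL/6 it gave 99 (without 0-day replicate 4; 113 without 1-week replicate 2) to 263 higher and 571 to 858 lower genes.

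Genes that changed sign were not called. With 1 RUVg factor Itgam was at -0.0038, Mmp13 at -0.19, Myh7 at 0.0322, S100a9 at -0.11 and Scd1 at 0.0509 (log2), and with 2 factors Mmp13 at -0.21 and S100a9 at -0.12. With the muscle covariate Col2a1 was at -0.12, Gapdh at 0.19, Itgam at -0.0073, Mmp13 at -0.35, Myh7 at 0.39, Pkm at 0.027 and S100a9 at -0.12, and with housekeeping scaling Hspa8 at -0.0207. The deviations of same-numbered 0-day and 1-week contralateral libraries had correlations of 0.119, -0.255, -0.122 and -0.171, so the replicate block is a check only. Those of same-numbered injured and contralateral libraries at 1-week, which no test here compares, were 0.495, 0.308, 0.407 and 0.204, each the best match, a hint from the data that these numbers may pair. With 4 libraries a group, genes under about 1 CPM rest on few counts.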
